A study of Mus musculus with 8 samples.

Results

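The cytokines of the interleukin-6 family and their receptors were followed in uncut and cut sciatic nerve of control and c-Jun knock-out mice. The set held 9 genes: the ligands Lif, Il6, Il11, Clcf1 and Cntf, and the receptor chains Il6st, Lifr, Osmr and Il6ra. They were found as the 20 probe sets that the array's annotation assigns to these genes, among 45101 probe sets in all. Of the 9 genes, 8 had a probe set of their own, out of 18193 such genes on the array. Cntf was represented only by a probe set that the annotation also gives to Zfp91 and Gm44505, so no value below is that of Cntf by itself.

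The ligands of this set all signal through gp130, the receptor chain encoded by Il6st. LIF engages gp130 together with the LIF receptor, CNTF and CLCF1 add a chain encoded by Cntfr to that pair, IL-6 and IL-11 first bind receptor chains of their own, and oncostatin M can use the chain encoded by Osmr. The receptors activate JAK kinases and the transcription factor STAT3, which switches on the inhibitor Socs3. In peripheral nerve, CNTF is known as a product of myelinating Schwann cells, and LIF and IL-6 as cytokines induced by injury.

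In adult mice the sciatic nerve was transected at its notch, and 7 days later a 10 mm piece of the distal stump and the uninjured nerve of the other side were taken. Each array received RNA pooled from 4 or 6 mice. Control mice, labelled WT, and c-Jun knock-out mice each gave a cut and an uncut group, so there were 4 groups of 2 arrays. As known from the published study rather than from the labels, c-Jun was deleted in Schwann cells, so other cells of the nerve keep the gene. With so few arrays a group, precision is limited.

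The labels call the tissue Schwann cells, but the design text describes RNA of whole nerve segments, and markers of other cells were present. After the cut 14 of 15 macrophage markers rose in control and 13 in mutant nerve. Their summed linear signal was 15881 to 18728 in control uncut, 58870 to 64047 in control cut, 15251 to 19729 in mutant uncut and 53802 to 64972 in mutant cut nerve. That of 8 tested Schwann lineage markers was 35691 to 36785, 16961 to 17123, 33022 to 35104 and 18239 to 20041 in the same order. That sum follows the most abundant genes, and single Schwann lineage markers moved both ways, with 3 higher, 3 lower and 2 not called in each genotype. In control nerve Ngfr (log2 difference 3.93), Gap43 (2.55) and Foxd3 (1.08) rose. The myelin gene Mbp (-2.38), the myelin regulator Egr2 (-2.76) and S100b (-0.92) fell, and Sox10 (-0.04) and Erbb3 (0.25) were not called. In mutant nerve Erbb3 (0.59) rose, Gap43 (0.57) was not called, and the other calls were the same. Gap43 exceeded the array median on the cut arrays alone. Of 8 skeletal muscle markers 7 rose in each genotype, with a summed signal of 28172 to 48101 in control uncut and 86776 to 104146 in control cut nerve. Of 10 fibroblast markers 5 rose and 1 fell in each genotype, and of 8 mural cell markers 1 rose and 4 fell. The mural marker that rose was Des (2.71 in control and 2.77 in mutant nerve). Of 8 endothelial markers 1 fell in control and 4 in mutant nerve. Among all genes tested 22.8% rose and 17.5% fell in control nerve, and 18.1% rose and 17.8% fell in mutant nerve. The part of cell mixture in these changes and in the injury differences below was not tested. In such samples fewer cells of a type and less RNA per cell cannot be told apart.

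Jun, the targeted gene, read 9.58 and 9.70 (log2 signal) in control uncut, 11.88 and 11.96 in control cut, 9.62 and 9.59 in mutant uncut and 10.39 and 10.80 in mutant cut nerve. Both mutant cut arrays were thus below both control cut arrays, while the uncut arrays of the genotypes met. Milk protein signal differed between arrays. Csn2, a casein gene, read 3.50 and 4.14 in control uncut, 11.47 and 7.03 in control cut, 13.01 and 10.33 in mutant uncut and 3.69 and 9.15 in mutant cut nerve (replicates 1 and 2). In uncut nerve both mutant arrays were far above both control arrays, so casein signal and genotype cannot be told apart there, nor in the injury difference of mutants and the interaction, which use those arrays. In control nerve both cut arrays were above both uncut arrays for Csn2, and also for the caseins Csn3 and Csn1s1. Casein signal and injury therefore cannot be told apart in the injury difference of control mice. In cut nerve 1 array of each genotype was the higher. Results between cut nerves are therefore also given without control cut replicate 1 and mutant cut replicate 2, the cut arrays of higher casein signal in their groups. The cut arrays kept still differed in Csn2, at 7.03 in control and 3.69 in mutant nerve.

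c-Jun is a subunit of AP-1, a factor known to bind the letters TGAGTCA, whose reverse complement is TGACTCA. RefSeq start sites (build GRCm38.p6) were matched by symbol for 8 of the 9 genes, all but Clcf1, and the 250 bases before each start were searched for these letters on both strands. They stood in 4 of the 10 windows of these genes, 1 each for Lif, Il6, Cntf and Il11, and in 4.46% of all 32851 windows of that length. The windows of the 3 ligands with this match and a probe set of their own are shown, because their arrays differed in pattern as described below. Capitals mark the match, each sequence runs 5′ to 3′ on the gene's strand, and a match describes letters, not a binding site.
Lif (chr11:4257318-4257567, plus strand): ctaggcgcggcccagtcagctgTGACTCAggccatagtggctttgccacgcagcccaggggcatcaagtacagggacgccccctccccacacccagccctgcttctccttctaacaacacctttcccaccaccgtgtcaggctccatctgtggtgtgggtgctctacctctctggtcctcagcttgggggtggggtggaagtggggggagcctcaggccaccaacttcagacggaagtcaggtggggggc
Il6 (chr5:30012864-30013113, plus strand): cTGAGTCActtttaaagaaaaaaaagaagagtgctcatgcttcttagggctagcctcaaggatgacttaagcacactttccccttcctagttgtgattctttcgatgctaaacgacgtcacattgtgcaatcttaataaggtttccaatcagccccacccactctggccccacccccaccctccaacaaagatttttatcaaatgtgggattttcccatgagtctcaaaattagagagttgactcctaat
Il11 (chr7:4778142-4778391, minus strand): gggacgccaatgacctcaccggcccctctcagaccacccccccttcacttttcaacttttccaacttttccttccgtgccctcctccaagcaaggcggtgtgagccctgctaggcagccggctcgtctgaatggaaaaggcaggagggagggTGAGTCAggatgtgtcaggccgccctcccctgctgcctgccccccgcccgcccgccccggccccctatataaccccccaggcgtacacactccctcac
Counted from the start site, the match lay at -228 to -222 in Lif, at -249 to -243 in Il6 and at -98 to -92 in Il11. In the Cntf window (chr19:12765633-12765882, minus strand) it lay at -245 to -239. Il11 had a second start site whose window held no match, and the windows of Lifr, Osmr, Il6st and Il6ra held none.

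The first comparison asks how the family responded to nerve cut in control mice. The ligands Lif and Clcf1 and the receptor Osmr rose, the receptor Lifr fell, and the shared chain Il6st, the IL-6 receptor Il6ra and Il11 were not called. A gene was tested if a probe set exceeded the array median on at least 2 arrays, and a limma model over all 8 arrays called it when its p, adjusted by the method of Benjamini and Hochberg, was under 0.05. Of the 9 members 7 were tested, and 3 were called higher and 1 lower. Among all 12093 tested genes 40.3% were called in this comparison, 22.8% higher and 17.5% lower. The median difference of the 7 was 0.23 on the log2 scale, beside 0.05 for all genes tested. Lif exceeded the array median on all 4 cut arrays and 1 uncut array, so it was tested mainly because of its level in cut nerve.

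Lif, leukaemia inhibitory factor, read 6.56 on both control uncut arrays and 8.02 and 7.61 on the control cut arrays. The mutant uncut arrays gave 6.51 and 6.64, and the mutant cut arrays 6.73 and 7.04. Both control cut arrays lay above every other array, the mutant cut arrays came next, and the 4 uncut arrays lay lowest, near the array medians of 6.59 to 6.65. In control nerve Lif rose 2.39-fold (log2 difference 1.26, SE 0.16, limma adjusted p = 0.000787). In mutant nerve the difference of 0.32 did not pass (95% interval -0.06 to 0.69, limma adjusted p = 0.165). A second Lif probe set was dim, at 4.56 to 5.02, and below the filter; its highest value was also on a control cut array.

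Clcf1, cardiotrophin-like cytokine factor 1, was read by 3 probe sets, all above the filter. The one that represents the gene gave 6.69 and 6.82 in control uncut, 8.04 and 8.29 in control cut, 6.38 and 6.64 in mutant uncut and 7.30 and 7.72 in mutant cut nerve. As for Lif, the control cut arrays were highest, the mutant cut arrays came next and the uncut arrays were lowest. Clcf1 rose 2.66-fold in control nerve (log2 difference 1.41, SE 0.17, limma adjusted p = 0.00054) and 1.99-fold in mutant nerve (0.99, limma adjusted p = 0.00338). The other probe sets gave larger differences, 4.32 and 2.65 in control and 3.14 and 1.64 in mutant nerve, each called when probe sets were the units of the test. On the uncut arrays these probe sets read 4.12 to 4.93 and 5.66 to 6.15, below the array medians. They exceeded the medians on the cut arrays alone, so they were tested only because of their level in cut nerve. That test called 34.9% of 24220 probe sets in control and 29.9% in mutant nerve. The probe sets of Clcf1 share the direction of the change and differ in its size.

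Il6, interleukin-6, was below the array median on all 8 arrays, so it was tested only in the fit without a filter. It read 3.77 and 3.56 in control uncut, 5.32 and 4.70 in control cut, 3.70 and 4.10 in mutant uncut and 5.55 and 4.62 in mutant cut nerve. Every cut array was above every uncut one, and the cut arrays of the genotypes interleaved. The log2 difference after injury was 1.35 in control (SE 0.31, limma adjusted p = 0.0125) and 1.19 in mutant nerve (limma adjusted p = 0.0242). Without a filter 27.7% of 18193 genes were called in control and 25.2% in mutant nerve.

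Il11, interleukin-11, stayed between 6.42 and 6.65 on all arrays, at about the array medians. Both mutant cut arrays, at 6.53 and 6.42, lay below both control cut arrays and both mutant uncut arrays by a small margin. They overlapped only the control uncut arrays, at 6.52 and 6.65. The difference after injury was 0.02 in control and -0.13 in mutant nerve (limma adjusted p = 0.903 and 0.311).

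Among the receptors, Lifr, the partner of gp130 in the LIF receptor, fell. It read 11.48 and 11.41 in control uncut, 10.54 and 10.38 in control cut, 11.41 and 11.27 in mutant uncut and 10.69 and 10.40 in mutant cut nerve. All cut arrays lay below all uncut arrays, and the genotypes overlapped in cut nerve. In uncut nerve the higher mutant array lay just below the lower control array. The log2 difference was -0.98 in control (SE 0.13, limma adjusted p = 0.000793) and -0.79 in mutant nerve (limma adjusted p = 0.00254). The other Lifr probe sets were dimmer and gave -0.19 and -0.37 in control and -0.42 and -0.54 in mutant nerve. Of these, the probe set above the filter was not called.

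Osmr, a receptor chain for oncostatin M, read 9.94 on both control uncut arrays and 10.60 and 10.37 on the control cut arrays. In mutants it read 9.98 and 10.08 uncut and 10.37 and 10.17 cut. Cut arrays were higher than uncut ones in both genotypes, and the cut arrays of the genotypes met at 10.37. Osmr rose in control nerve (log2 difference 0.55, SE 0.12, limma adjusted p = 0.00854), and the difference of 0.24 in mutant nerve was not called (95% interval -0.04 to 0.52, limma adjusted p = 0.154). A second probe set above the filter gave 0.51 and 0.33, the first of these called. The remaining, dim one, at 4.08 to 4.46, gave -0.31 in control and 0.01 in mutant nerve.

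Il6st, which encodes gp130, read 12.12 and 12.10 in control uncut, 12.29 and 12.38 in control cut, 12.14 and 12.20 in mutant uncut and 12.26 and 12.29 in mutant cut nerve. All cut arrays were above all uncut arrays by a small margin. The log2 difference of 0.23 in control nerve did not pass (95% interval 0.02 to 0.44, limma adjusted p = 0.0822), and that in mutant nerve was 0.11. Its other 3 probe sets gave 0.33 to 0.51 in control and 0.22 to 0.42 in mutant nerve. With probe sets as the units 1 of them was called in both genotypes (0.42 in each, limma adjusted p = 0.0345 and 0.0378). The probe sets of Il6st therefore differ in call and not in direction.

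Il6ra, the chain that binds IL-6, read 8.67 and 8.48 in control uncut, 8.65 and 8.10 in control cut, 8.61 and 8.03 in mutant uncut and 8.63 and 8.06 in mutant cut nerve. The groups overlapped, and replicate 2 was the lower array in each of the 4. No injury difference was called (-0.20 in control and 0.02 in mutant nerve, limma adjusted p = 0.583 and 0.954). The second Il6ra probe set ranged from 6.53 to 6.83 and was not called either.

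**Figure D1:**
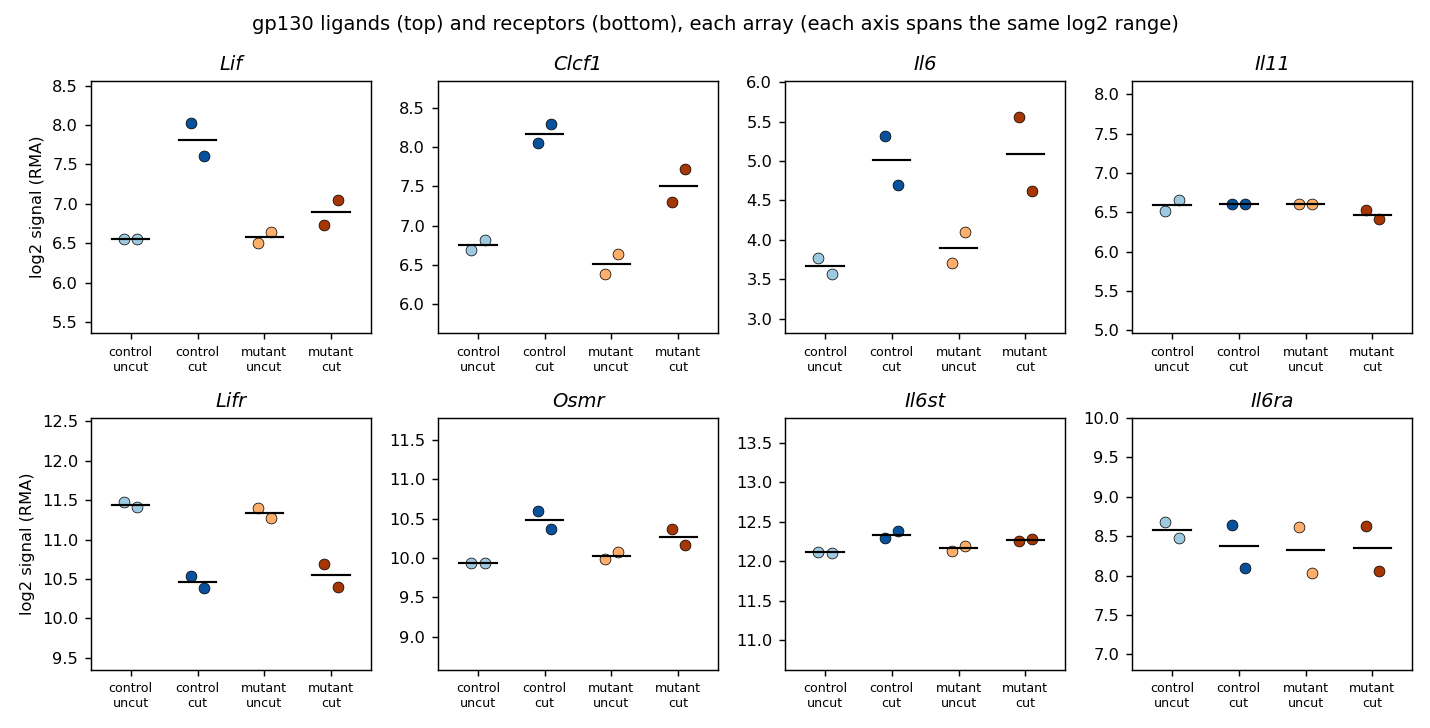
Log2 signal of the representing probe set of 4 ligands (top) and 4 receptor genes (bottom) on each of the 8 arrays, with a point per array and a line at the group mean of 2 arrays; all axes span equal ranges, and levels are not comparable between genes. The control cut arrays of Lif, at 8.02 and 7.61, stand above all its others, and all cut arrays of Lifr lie below all its uncut ones.

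In mutant nerve the same comparison called 2 of the 7 tested members, Clcf1 higher and Lifr lower, where 36.0% of all genes were called, 18.1% higher and 17.8% lower. The median of the 7 was 0.11. A call in one genotype and not in the other does not show that the genotypes differ, which the interaction tests as the injury difference in mutant minus that in control nerve. It was -0.94 for Lif (SE 0.23, 95% interval -1.47 to -0.41, limma adjusted p = 0.267), -0.42 for Clcf1 (limma adjusted p = 0.963) and -0.31 for Osmr (limma adjusted p = 0.958). Lifr gave 0.19, and the remaining tested members gave -0.15 to 0.23. With limma 0 of the 7 members passed and 1 had an unadjusted p under 0.05, while 0.165% of all genes were called.

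**Figure D2:**
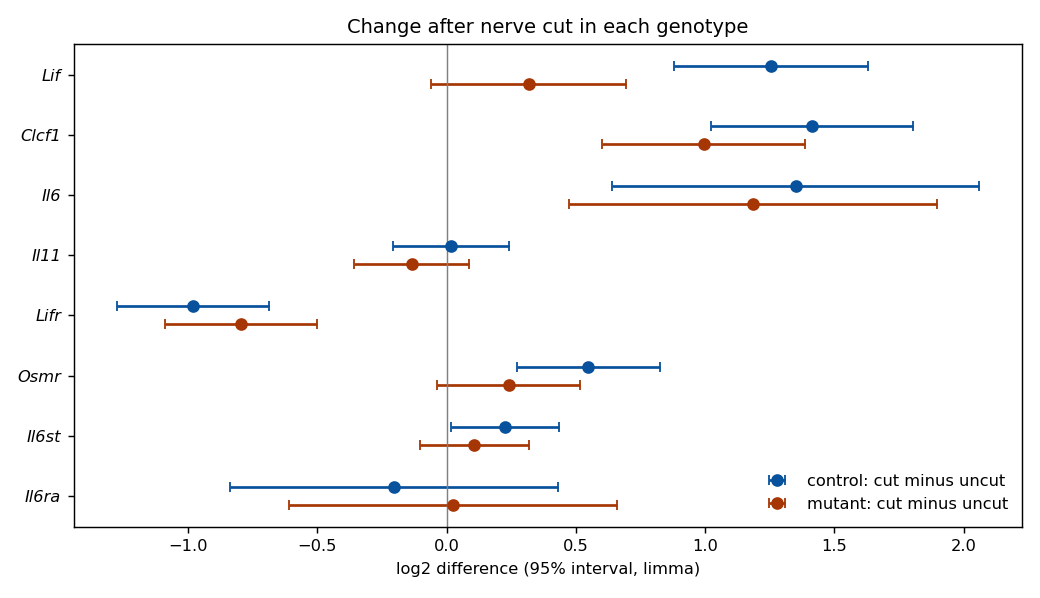
Log2 difference between cut and uncut nerve in control and mutant mice for 8 genes, with limma's 95% interval as the bar; Il6 comes from the fit without a filter. The Lif difference is 1.26 in control and 0.32 in mutant nerve, whereas the points of Lifr (-0.98 and -0.79) and Il6 (1.35 and 1.19) lie close together.

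The probe set shared by Zfp91, Cntf and Gm44505 showed the largest fall after injury among the 20. It read 13.51 and 13.30 in control uncut, 9.51 and 9.37 in control cut, 13.22 and 13.34 in mutant uncut and 10.28 and 9.64 in mutant cut nerve. All cut arrays lay far below all uncut ones, and both mutant cut arrays lay above both control cut arrays. With probe sets as the units the log2 difference was -3.97 in control (SE 0.20, limma adjusted p = 1.27e-05) and -3.33 in mutant nerve (limma adjusted p = 3.27e-05). The genotype difference of 0.52 in cut nerve was not called (limma adjusted p = 0.46), where 0.764% of probe sets were called.

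The array also carried 5 probe sets annotated to Zfp91, a zinc finger protein with ubiquitin ligase activity, without Cntf. Their injury differences ran from -0.65 to 0.39 in control and from -0.17 to 0.87 in mutant nerve. The shared probe set thus fell by more than any of them. Which of its genes' transcripts it read was not tested.

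**Figure D3:**
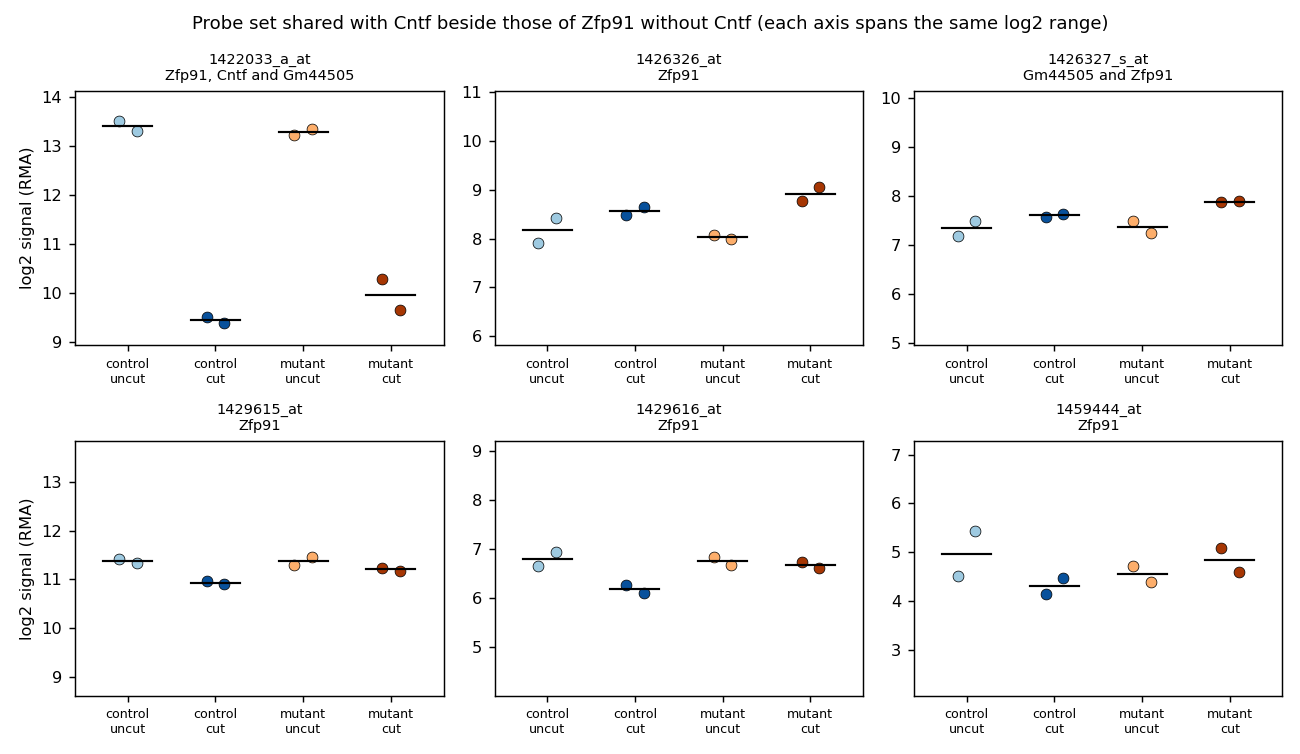
Log2 signal on each array for the probe set annotated to Zfp91, Cntf and Gm44505 and for 5 probe sets annotated to Zfp91 without Cntf, 1 of them also to Gm44505; points are arrays and lines are group means. The shared probe set drops from 13.51 and 13.30 to 9.51 and 9.37 in control nerve, a larger shift than in any other panel.

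The central comparison of the design is mutant against control cut nerve. Lif was lower in the mutant, by 1.90-fold (log2 difference -0.93, SE 0.16, 95% interval -1.30 to -0.55, limma adjusted p = 0.0491). It was the only one of the 7 tested members that was called, where 1.09% of all genes were called and 0.711% were called lower. The median of the 7 was -0.13, beside -0.01 for all genes. The Lif call sits at the threshold and was lost with any of the 8 arrays left out. The adjusted p then ran from 0.0541 without control cut replicate 2 to 0.231 without mutant cut replicate 1, with differences of -1.13 to -0.72. Without the cut arrays of higher casein signal the difference was -0.87 (limma adjusted p = 0.113). Between the same groups limma called 0 of 15 macrophage markers (1 had an unadjusted p under 0.05), and of 8 Schwann lineage markers Mbp was higher (0.99) and Gap43 lower (-2.01), with 3 at an unadjusted p under 0.05. Of 10 fibroblast markers Thy1 was lower (-0.81, limma adjusted p = 0.016). Their part in the Lif difference was not tested.

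Clcf1 was lower in both mutant cut arrays than in both control cut arrays on all 3 of its probe sets, but no probe set was called. The difference was -0.66 on the representing probe set (SE 0.17, 95% interval -1.05 to -0.27, limma adjusted p = 0.186). The others gave -1.09 and -1.06 (limma adjusted p = 0.306 and 0.102 with probe sets as units). Without the cut arrays of higher casein signal the representing probe set gave -0.99 (limma adjusted p = 0.141).

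No other tested member was called between the genotypes in cut nerve. Osmr differed by -0.21 (95% interval -0.49 to 0.06), Lifr by 0.08 (-0.21 to 0.37) and Il6st by -0.06 (-0.27 to 0.15). Il6ra differed by -0.02 (-0.66 to 0.61) and Il11 by -0.13 (-0.36 to 0.09). Il6, from the fit without a filter, differed by 0.07 (-0.64 to 0.79). Lif, Il6 and Il11 hold the AP-1 letters shown above. The cut arrays of the genotypes were apart for Lif, apart by a small margin for Il11 and interleaved for Il6. Il6 was below the array median on every array. The difference between these genes was not tested.

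In uncut nerve limma called 0 of the 7 members between genotypes, and 0 had an unadjusted p under 0.05. Of all genes 0% were called, and 322 had an unadjusted p under 0.05. Lif differed by 0.01 (95% interval -0.36 to 0.39), Clcf1 by -0.24 (-0.63 to 0.15) and Il6ra by -0.25 (-0.89 to 0.38), and the others by -0.11 to 0.09.

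**Figure D4:**
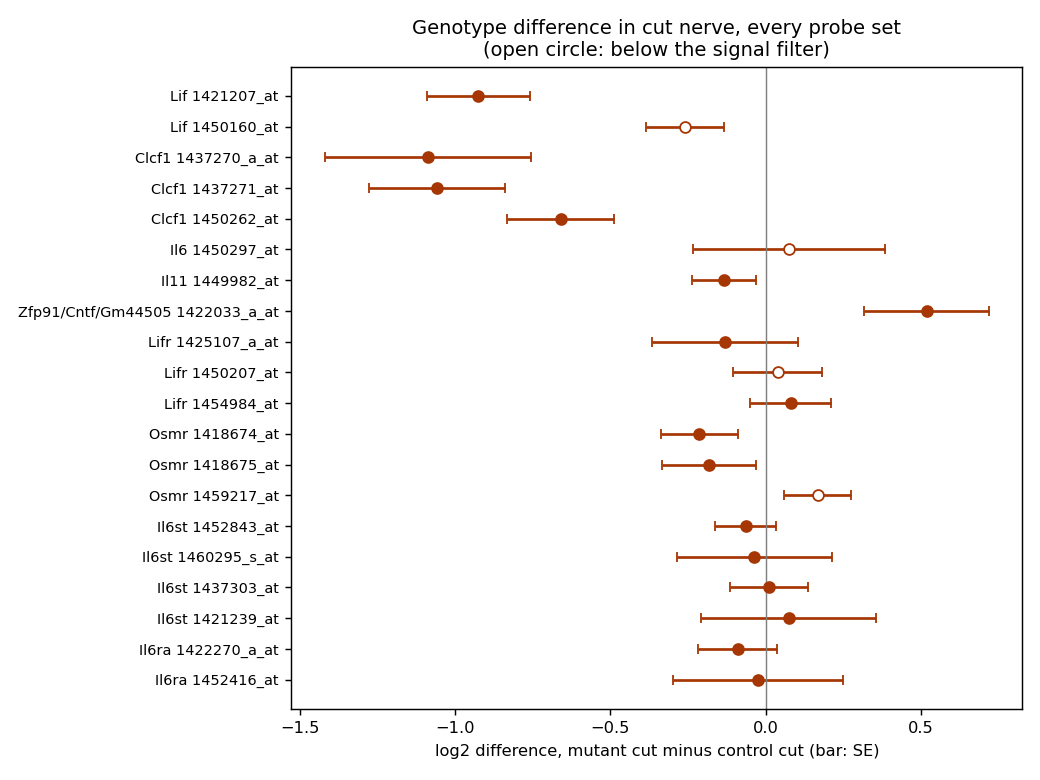
Log2 difference between mutant and control cut nerve for all 20 probe sets, with the standard error as the bar; open circles mark probe sets below the signal filter. The brighter Lif probe set (-0.93) and the 3 Clcf1 probe sets (-1.09, -1.06 and -0.66) lie farthest to the left, and the probe set shared by Zfp91, Cntf and Gm44505 (0.52) farthest to the right.

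Of further ligands or ligand subunits of the wider family 3 were tested, and 2 rose in control and 1 in mutant nerve. Over all genes 22.8% rose in control and 18.1% in mutant nerve. Osm, oncostatin M, read 6.52 and 6.50 in control uncut, 6.85 and 6.79 in control cut, 6.55 and 6.44 in mutant uncut and 6.82 and 6.98 in mutant cut nerve. All its cut arrays were above all uncut ones. It exceeded the array median on the 4 cut arrays alone, so it was tested only because of its level in cut nerve. It rose in control (log2 difference 0.31, limma adjusted p = 0.0412) and mutant nerve (0.41, limma adjusted p = 0.0158). Ebi3, a subunit of IL-27, rose in control nerve (0.71, limma adjusted p = 0.00361), and its difference of 0.26 in mutant nerve was not called. Ctf1, cardiotrophin 1, gave -0.09 and -0.20 and was not called. Il31 was below the filter, and Ctf2 and Il27 had no probe set of their own.

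Of 4 further receptor genes 2 were tested and neither was called after injury. Over all genes 40.3% were called in control and 36.0% in mutant nerve. Cntfr, the CNTF-binding chain, gave -0.30 in control and -0.28 in mutant nerve (limma adjusted p = 0.0863 and 0.107), and Il27ra gave 0.26 and -0.12. Il31ra was below the filter, and Il11ra1 had no probe set of its own. With limma 0 of these 5 ligand and receptor genes were called between genotypes in cut nerve, and 0 had an unadjusted p under 0.05. Over all 12093 genes 1.09% were called there and 1041 had such a p, so these counts say little about the 5 genes.

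Downstream of gp130, Socs3, the inhibitor induced by STAT3, read 8.75 and 8.46 in control uncut, 10.56 and 10.18 in control cut, 8.51 and 8.41 in mutant uncut and 10.35 and 10.09 in mutant cut nerve. The cut arrays of the genotypes interleaved, far above the uncut ones. Socs3 rose by 1.77 in control (SE 0.17, limma adjusted p = 0.000173) and by 1.76 in mutant nerve (limma adjusted p = 0.000208) on the log2 scale. In cut nerve the genotypes differed by -0.16 (95% interval -0.54 to 0.23). Of 13 tested feedback genes and inhibitors 4 rose and 1 fell in control nerve, and 2 rose in mutant nerve. These shares too are no higher than the 40.3% and 36.0% over all genes. Ptpn2 (0.57) and Ptpn6 (0.53), phosphatases of JAK-STAT signalling, and Socs6 (0.50) rose and Socs7 (-0.61) fell in control nerve. Socs6 also rose in mutant nerve (0.45).

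Of 12 tested transducers 3 rose and 1 fell in control nerve, and 2 rose and 1 fell in mutant nerve. These shares are no higher than those over all genes, 40.3% and 36.0%. The adaptors Gab2 (1.26 and 1.01) and Grb2 (1.01 and 0.98) rose and the adaptor Gab1 (-0.995 and -0.85) fell in control and mutant nerve. Jak1, a kinase bound to gp130, rose in control nerve (0.58, limma adjusted p = 0.00534), and its difference of 0.22 in mutant nerve was not called. Stat3 itself gave 0.19 in each genotype and was not called.

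Of 25 tested genes known as STAT3 targets 17 rose and 1 fell in control nerve, and 14 rose in mutant nerve, where 22.8% and 18.1% of all genes rose. Their median difference was 0.73 in control and 0.52 in mutant nerve, beside 0.05 and -0.00 for all genes. The largest rises were those of Timp1, an inhibitor of matrix proteases (3.68 and 3.10), the cyclin Ccnd1 (2.40 and 2.50), the chemokine Ccl2 (2.19 and 1.82) and Tnfrsf12a, the TWEAK receptor (1.97 and 1.47). Fgl2 fell in control nerve (-1.22), and its difference of -0.26 in mutant nerve was not called. Between genotypes in cut nerve limma called 0 of the 12 transducers, 0 of the 13 feedback genes and 0 of the 25 targets. At an unadjusted p under 0.05 the counts were 2, 0 and 6. Over all 12093 genes 1.09% were called in this comparison, and 1041 had an unadjusted p under 0.05.

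**Figure D5:**
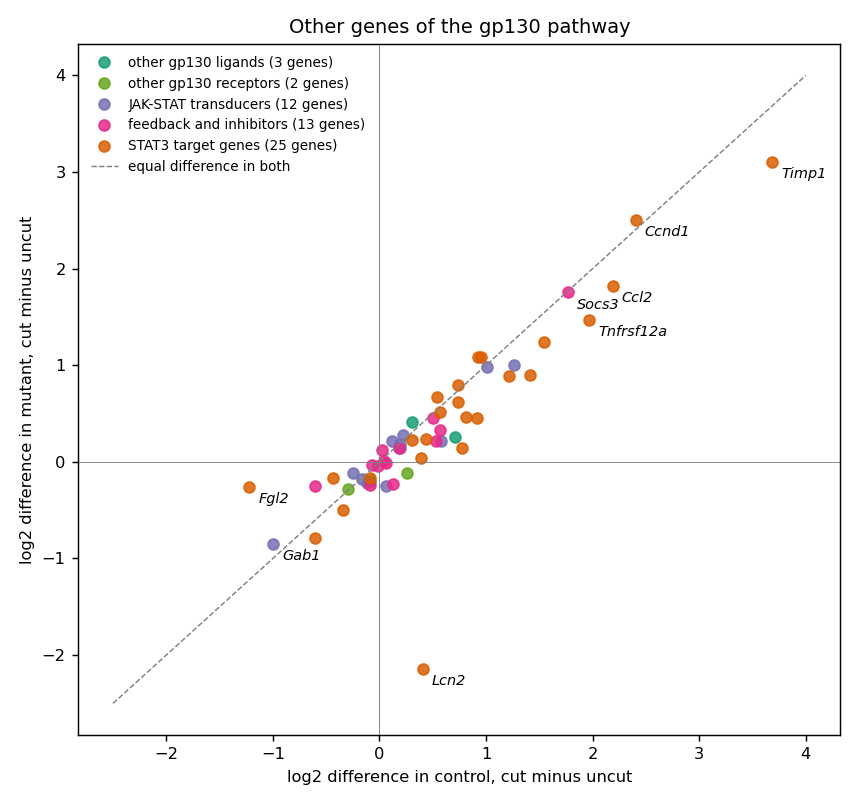
Log2 difference after injury in control (x axis) and mutant nerve (y axis) for 55 other genes of the pathway, marked by list; the line marks equal differences, and the axes rest on separate arrays. Socs3 lies on the line at 1.77 and 1.76, Timp1 lies at 3.68 and 3.10, and Lcn2 stands apart at 0.41 and -2.15 without a call in either genotype.

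The genes with the most similar profile over the 8 arrays were found by the root mean square difference in log2 signal after each gene was centred on its own mean. The same arrays give the injury and genotype differences of these genes below. Their likeness to the member in those differences therefore follows from the choice and is no separate result. Nearest to Lif were Slc37a1 (0.137), B4galt2 (0.142) and Pfkp (0.144), where the median over 12092 genes was 0.54. Nearest to Clcf1 were Plekhg1 (0.146), Lpcat2 (0.154) and Fosl1 (0.175), the last an AP-1 subunit, where the median was 0.671. Slc37a1 and Plekhg1 had differences of 1.33 and 1.42 after injury in control nerve and of -1.16 and -0.75 between mutant and control cut nerve.

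Nearest to Lifr were Ak3 (0.046), Prkce (0.0544) and Hnrnpul2 (0.057), where the median was 0.489. Nearest to Osmr were Rest (0.0323), Tmem141 (0.0448) and Cep164 (0.0498), where the median was 0.275. Lifr, Ak3, Prkce and Hnrnpul2 all lay lower in cut than in uncut nerve, with control differences of -0.98 for Lifr and -0.995, -0.979 and -0.985 for the other 3 genes.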

How the data were processed

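The authors deposited log2 signals from 1-colour Affymetrix arrays, made with RMA and affy per the submitters' processing notes. Versions and scan dates were not given in the sources used here, and no detection calls were used. RMA equalises the arrays and tends to compress differences of dim probe sets. Values were used as deposited. Gene names came from the platform annotation (34958 probe sets with 1 symbol, 932 with several, 9211 with none). Of the probe sets above the array median on at least 2 arrays (24220), the one with the highest mean represented each gene (12093 genes; 64 control probe sets were left out).

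With R 4.3.3 and limma 3.58.1 the 8 arrays were fitted with 1 coefficient for each group (4 residual and 3.59 prior degrees of freedom), with 5 contrasts, two-sided p-values and Benjamini-Hochberg adjustment across all genes. The model was tested on simulated data. The pools of a group are described as independent, and p-values measure the spread between them. Members and lists were chosen with earlier results of these data known. Named were all members, the further ligands and receptors, up to 4 called genes per contrast of each signalling list, and Jun. The 3 nearest profiles of Lif, Clcf1, Lifr and Osmr were named as well. Stat3, Fgl2, Lcn2, the caseins and single cell type markers were named after their values were seen. Alternatives were other filters, probe set summaries, scalings and variance models, only the arrays compared, a replicate block and each array left out. Leaving out the casein-high cut array of each genotype was chosen after seeing the data.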

Additional observations from a re-analysis of the deposited data

How the results depend on the processing

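The injury calls of Clcf1 and Lifr in both genotypes and of Lif and Osmr in control nerve held under every alternative that tested them (19 for Lif, which a filter at the 75th percentile leaves out, and 20 for the others). The Lif call in cut nerve held in 5 of 19. The count of called members there was 0 with that filter, array weights, the unmoderated statistic, only the 4 arrays compared, probe sets as units and without the casein-high cut arrays, and 0 to 0 with each array left out. The cause was not tested. Low signal limits what can be said of Il6, Il11 and the second Lif probe set.

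The labels do not say that equal replicate numbers share mice, and deviations of same-numbered arrays correlated at 0.0226 to 0.34 between groups. With the replicate number as a block, Clcf1 was called in cut nerve (adjusted p = 0.0334) and Lif was not (adjusted p = 0.0616), so the count of 1 there was a different gene. It changed no other member's call. The block gave 4 called genes for genotype in uncut nerve.

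Counts over all genes moved as follows. Probe sets as units gave 8441 calls for injury in control, 7240 for injury in mutant and 1 for genotype in uncut nerve. The unmoderated statistic gave 2863 for injury in mutant, 0 for genotype in cut nerve and 0 for the interaction. Only the 4 arrays compared gave 31 for genotype in cut and 9 in uncut nerve. Without the casein-high cut arrays there were 2782 for injury in mutant, 55 for genotype in cut and 9 in uncut nerve. The mean of probe sets gave 1 for genotype in uncut nerve and 33 for the interaction, which had 33 without a filter, 11 with the stricter filter and 31 with trended and robust variance. With each array left out the counts were 2734 to 4260 for injury in mutant, 13 to 111 for genotype in cut nerve, 0 to 2 in uncut nerve and 0 to 45 for the interaction.

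Only differences that were not called changed sign. With the mean of probe sets Lifr gave -0.025 for genotype in cut nerve and -0.021 for the interaction. Without the casein-high cut arrays genotype in cut nerve gave 0.0032 for Osmr and 0.54 for Il6ra. With each array left out, Il6ra ranged from -0.48 to 0.070 for injury in control, -0.27 to 0.32 for injury in mutant, -0.31 to 0.26 for genotype in cut nerve, -0.55 to 0.039 for genotype in uncut nerve and -0.064 to 0.52 for the interaction. Il11 ranged from -0.049 to 0.083 for injury in control and from -0.047 to 0.085 for genotype in uncut nerve. Lif ranged from -0.051 to 0.079 for genotype in uncut nerve, and Lifr from -0.064 to 0.23 for genotype in cut nerve.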

Other observations

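Lcn2, lipocalin 2, an acute phase protein listed among the STAT3 targets, read 7.61 and 6.83 in control uncut, 9.12 and 6.14 in control cut, 9.51 and 10.01 in mutant uncut and 6.66 and 8.56 in mutant cut nerve. No comparison called it. Its higher cut array in each genotype was the one with the higher Csn2 signal, and its highest arrays were those of mutant uncut nerve, where Csn2 read 13.01 and 10.33. The part of casein-bearing tissue in the Lcn2 values was not tested.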
